A study of Mus musculus with 3 samples.

Results

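The genes described here are 10 genes of fat cells, measured in osteocytic cells: the regulators Pparg and Cebpa, and the effectors Fabp4, Lpl, Adipoq, Plin1, Cd36, Cidec, Lipe and Pnpla2. They were chosen by name as a list of adipocyte genes, with earlier results of these data known. They are 10 of the 25410 gene symbols in each deposited file. The cells were IDG-SW3, a mouse line that carries a conditional T antigen and is kept proliferating with interferon-gamma at 33 °C, then moved to 37 °C in osteogenic medium without interferon-gamma. All 3 libraries, replicates 1, 2 and 3, came from IDG-SW3 cells differentiated to day 35 and then given PTH (parathyroid hormone) at 100 nM for 24 h, and were biological replicates per the series' design text. Ribosomal RNA had been depleted from total RNA before directional libraries were made. The 3 libraries form a single group, so no gene could be set against untreated cells, and the effect of PTH on these genes was not measured. IDG-SW3 is a single cell line, and the series names no sorting of the cultures. In bulk RNA, a few cells with a high level and many cells with a low level cannot be told apart.

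Osteoblasts and adipocytes arise from related mesenchymal stromal cells, and the nuclear receptor PPARγ, encoded by Pparg, is the master regulator of the fat cell fate. C/EBPα, encoded by Cebpa, is a basic leucine zipper factor that acts with PPARγ, and each sustains the expression of the other during fat cell differentiation. Together they switch on genes for fatty acid uptake, lipid droplets, lipolysis and adipokines. In bone and bone marrow this programme is studied because stromal cells can take the adipocyte fate in place of the osteoblast fate.

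Promoter sequence shows where the motifs of these regulators lie near the genes, and was taken from RefSeq (GRCm38.p6), in windows of 300 bases that run from 250 bases before to 50 after an annotated transcription start. The files give mm9 as their build and hold no coordinates, so these windows locate the genes only in GRCm38.p6. RefSeq windows were used for 8 of the 10 genes, 12 windows in all, and not for Fabp4 and Lpl. The motif bound by C/EBP factors was searched as TTGCNNAA on both strands. It was present in 3 of the 12 windows, of Pparg, Cidec and Plin1, and in 10.8% of all 32851 RefSeq windows. The TATA box was searched as TATAAA on both strands and was present in 2 of the 12 windows, against 13.6% of all windows. The nuclear receptor motif AGGTCA, also on both strands, was in 3 of the 12 windows, of Pparg and Cd36, against 16.3% of all. No window of these genes held the direct repeat of that motif with 1 base between, the arrangement PPARγ binds with its partner RXR, which was in 0.0396% of all windows. None held TGACG, the core of the cyclic AMP response element, on either strand, which was in 20.8% of all. A match describes letters in a window, not a site of binding, and a missing match says only that these letters are not there.

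The windows are shown for Cebpa, the regulator with more counts, for Adipoq, the gene most tied to fat cells among those above 1 RPKM, and for the 3 windows that hold the C/EBP motif. Capitals mark C/EBP motifs and, in Cebpa, the TATA box, and each sequence is written 5′ to 3′ on the strand of the gene. Positions count from the annotated start, with the base before it as -1.

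Cebpa, chr7:35119043-35119342, + strand, TATA box at -30 to -25: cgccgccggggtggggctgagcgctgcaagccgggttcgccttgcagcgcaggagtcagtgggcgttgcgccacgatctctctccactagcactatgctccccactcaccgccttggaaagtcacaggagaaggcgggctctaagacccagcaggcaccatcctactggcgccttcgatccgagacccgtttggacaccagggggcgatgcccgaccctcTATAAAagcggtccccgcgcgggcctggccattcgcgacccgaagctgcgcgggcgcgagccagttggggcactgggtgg

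Adipoq, chr16:23146286-23146585, + strand, with neither motif: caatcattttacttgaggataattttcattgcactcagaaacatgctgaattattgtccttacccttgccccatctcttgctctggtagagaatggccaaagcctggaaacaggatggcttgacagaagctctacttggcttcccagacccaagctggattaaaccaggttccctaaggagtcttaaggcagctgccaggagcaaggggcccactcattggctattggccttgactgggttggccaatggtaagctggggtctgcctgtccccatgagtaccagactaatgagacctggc

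Pparg, chr6:115421816-115422115, + strand, the most downstream of its 3 windows, C/EBP motifs at -215 to -208 and, on the other strand, at -16 to -9: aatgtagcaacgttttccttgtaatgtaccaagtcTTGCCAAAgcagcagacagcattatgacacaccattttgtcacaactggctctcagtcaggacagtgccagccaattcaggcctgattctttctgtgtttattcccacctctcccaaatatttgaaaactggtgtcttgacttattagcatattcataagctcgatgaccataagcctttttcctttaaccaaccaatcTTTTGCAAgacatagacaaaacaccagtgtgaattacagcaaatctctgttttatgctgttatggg

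Cidec, chr6:113434715-113435014, − strand, C/EBP motif at -198 to -191: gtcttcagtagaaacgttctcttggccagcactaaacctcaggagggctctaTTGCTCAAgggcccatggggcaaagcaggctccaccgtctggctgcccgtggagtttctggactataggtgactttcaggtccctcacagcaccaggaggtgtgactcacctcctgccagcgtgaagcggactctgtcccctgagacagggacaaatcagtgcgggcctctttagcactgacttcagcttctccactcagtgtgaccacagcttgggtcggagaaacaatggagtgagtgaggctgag

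Plin1, chr7:79732727-79733026, − strand, C/EBP motifs at -187 to -180 and at -58 to -51: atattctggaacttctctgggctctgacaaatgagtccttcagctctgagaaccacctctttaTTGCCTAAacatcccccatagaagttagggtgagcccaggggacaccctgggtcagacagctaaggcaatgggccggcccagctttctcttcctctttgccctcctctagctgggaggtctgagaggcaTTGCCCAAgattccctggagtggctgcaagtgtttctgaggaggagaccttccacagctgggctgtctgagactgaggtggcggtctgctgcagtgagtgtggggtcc

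The libraries held 35195518, 37299517 and 45240005 counts in replicates 1, 2 and 3. The file names call the values RPKM, but they are whole numbers with different totals, and were read as counts of reads per transcript row. Every level below is RPKM computed from them, counts divided by transcript length and by the library's total, and rests on that reading. A gene was called above or below 1 RPKM where edgeR's quasi-likelihood test, adjusted over all genes tested, gave a p under 0.05. It was called unresolved where it did not. Markers of the labelled cell type were mixed. Bone matrix genes were at high levels, as with Sparc (osteonectin) at 6409 ± 408 RPKM and Ibsp (bone sialoprotein) at 2052 ± 415 RPKM (SD, n = 3). Runx2, the osteoblast master regulator, stood at 1.25 RPKM, but has 3 rows, a limit described below. Of 12 osteoblast lineage genes, 9 were above 1 RPKM, 1 below and 2 unresolved. Of 10 osteocyte genes 5 were above and 5 unresolved, with a median of 1.22 RPKM. Over all genes tested, 43.0% were above 1 RPKM and 12.4% below. Among the 5 osteocyte genes above, Pdpn and Phex, of early osteocytes, had means of 155.7 and 9.05 RPKM. The rest of the 5 were Hyou1, Irx5 and Fam20c, with means of 43.75, 6.51 and 1.78 RPKM. Dmp1, Mepe, Fgf23, Cd44 and Sost had means of 0.652, 0.436, 0.267, 0.102 and 0.00917 RPKM. These are the 5 unresolved genes, so their means were under 1 RPKM but none was called below. Dmp1 was at 1.12 RPKM in replicate 2, and Cd44 has 6 rows.

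Of the 10 genes, 4 were above 1 RPKM (Fabp4, Lpl, Cebpa and Adipoq) and 3 were unresolved (Pparg, Cidec and Cd36). The other 3, Lipe, Plin1 and Pnpla2, were listed at 0 in all 3 libraries and could not be tested. Over all 21011 genes tested, 43.0% were above 1 RPKM. The count of 4 among the 7 tested here therefore does not set these genes apart. The median of the 10 was 0.21 RPKM, against 0.497 RPKM for all 23047 symbols with a length. Over symbols with 1 row the order was opposite, with a median of 3.15 RPKM for 5 of the 10 genes, against 0.694 RPKM for all 19752 such symbols. No gene of the 10 was below 1 RPKM by edgeR, also at an unadjusted p under 0.05, against 12.4% of all genes tested. The limma test, planned as an alternative, called 3 of them below 1 RPKM (Pparg, Cidec and Cd36), and DESeq2 called 0, with 1 at an unadjusted p under 0.05. All levels and their rows are drawn in the plot of the genes by library.

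**Figure D1:**
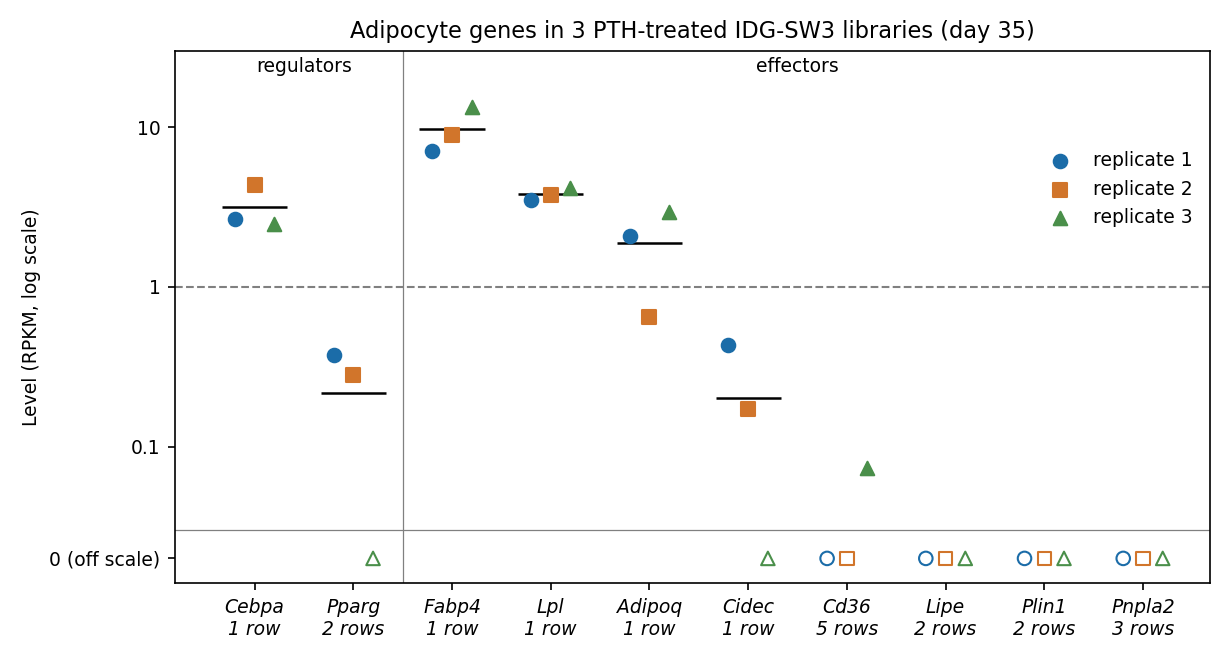
Level of each of the 10 adipocyte genes in RPKM (log axis) in replicates 1, 2 and 3, with regulators to the left of effectors, the black line at the mean of the 3 libraries (not drawn for Cd36 and the genes at 0) and the dashed line at 1 RPKM; open symbols at the bottom are libraries with 0 counts. Fabp4, Lpl and Cebpa lie above 1 RPKM in every library, Adipoq in 2 of 3, and Plin1, Lipe and Pnpla2 have 0 counts in every library.

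The number of rows a symbol has in the files bears on these zeros. A symbol can have several rows, which were summed, and 5 of the 10 genes had more than 1: Cd36 had 5 rows, Pnpla2 had 3, and Pparg, Plin1 and Lipe had 2 each. Of the 19 rows of the 10 genes, 12 were at 0 in every library, and all 12 belonged to these 5 genes. In the whole files, 1117 of the 3470 symbols with several rows were at 0 in all libraries (32.2%), against 1267 of the 21940 symbols with 1 row (5.77%). The share was 30.4% for symbols with 2 rows and 47.4% for those with 5 or more. How reads shared by several transcripts of a gene were counted is not given in the sources used here. The zeros of Pnpla2, Lipe, Plin1 and Cd36 and the low count of Pparg are therefore not read as absence of the transcript, and the 5 genes with 1 row carry the results that follow.

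**Figure D2:**
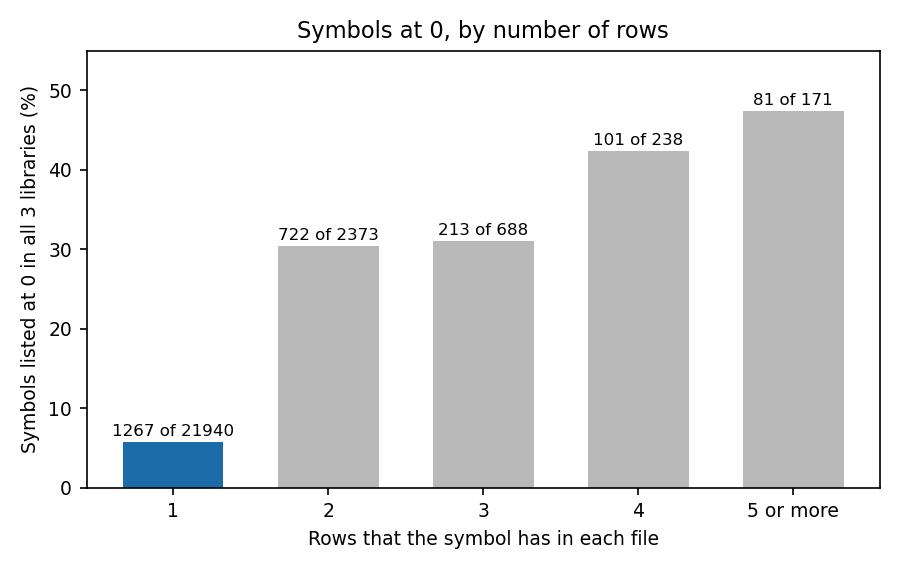
Share of symbols listed at 0 in all 3 libraries (percent), by the number of rows the symbol has in each file; numbers over the bars are symbols at 0 of all symbols in that class. The share is 5.77% for symbols with 1 row and between 30.4% and 47.4% for symbols with more.

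Of the regulators, Cebpa was measured well and Pparg was not. Cebpa, with 1 row, had 223, 386 and 269 counts in replicates 1, 2 and 3, or 2.65, 4.32 and 2.48 RPKM. Replicate 2 was the highest, and all 3 libraries were above 1 RPKM. The mean was 3.15 ± 1.02 RPKM (SD, n = 3), and edgeR's quasi-likelihood test placed it above 1 RPKM (log2 level 1.65, adjusted p = 1.68e-21). DESeq2 did not (adjusted p = 0.0584). GENCODE M21 annotates a gene on the other strand that overlaps Cebpa (Gm45091), and another that overlaps Pparg (Gm44079). The use of strand in counting is not given in the sources used here, so reads of such partners could be included.

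Pparg had all its counts in 1 of its 2 rows, with 24, 19 and 0 counts, or 0.373, 0.279 and 0 RPKM. Replicate 3, the deepest library, had none, which allows up to 0.0363 RPKM (3 counts). The files do not say which transcript each row stands for, so the counts cannot be assigned to a Pparg isoform or to 1 of the windows shown above. The pooled level over the 3 libraries was 0.2 RPKM, with an exact 95% Poisson interval of 0.145 to 0.269 RPKM. Such intervals and limits cover the error of counting alone, because PCR copies cannot be told from separate molecules here.

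Fabp4 was the highest of the 10 genes. It encodes the fatty acid binding protein of adipocytes, which carries fatty acids in the cytosol and is also made by macrophages and capillary endothelium. It had 222, 297 and 537 counts, or 7.04, 8.89 and 13.3 RPKM in replicates 1, 2 and 3, with replicate 3 the highest. Its mean of 9.73 ± 3.19 RPKM (SD, n = 3) was above 1 RPKM (edgeR log2 level 3.27, adjusted p = 2.9e-62). The call also held in limma (adjusted p = 7.93e-09) and DESeq2 (adjusted p = 2.01e-13), at much larger p.

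Lpl encodes lipoprotein lipase, the secreted enzyme that frees fatty acids from triglyceride-rich lipoproteins. It had 506, 574 and 768 counts, or 3.49, 3.74 and 4.12 RPKM, and was the most even of the 10 genes. Its mean was 3.79 ± 0.318 RPKM (SD, n = 3), above 1 RPKM (edgeR log2 level 1.92, adjusted p = 1.38e-41). The size of p depended on the test, with an adjusted p of 3.77e-07 in limma and 0.00948 in DESeq2.

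Adipoq encodes adiponectin, the adipokine that circulates at the highest level and is made chiefly by adipocytes. It had 94, 31 and 172 counts, or 2.07, 0.643 and 2.94 RPKM. Replicates 1 and 3 were above 1 RPKM and replicate 2 was below. The mean was 1.88 ± 1.16 RPKM (SD, n = 3), and edgeR called it above 1 RPKM (log2 level 0.91, adjusted p = 0.00596). The call was lost without replicate 1 (adjusted p = 0.071) or replicate 3 (adjusted p = 0.332), in limma (adjusted p = 0.0989) and in DESeq2 (adjusted p = 0.507). Adipoq was thus detected in every library, while its position against 1 RPKM rests on single libraries.

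Cidec encodes a protein of the lipid droplet surface that helps droplets fuse and grow in white fat. It has 1 row and had 26, 11 and 0 counts, or 0.434, 0.173 and 0 RPKM, so all 3 libraries were below 1 RPKM. Its pooled level was 0.184 RPKM (exact 95% Poisson interval 0.13 to 0.254), and the edgeR test left it unresolved (adjusted p = 0.135). Cd36 encodes a fatty acid translocase that also serves macrophages and endothelium. All its 9 counts were in replicate 3 and in 1 of its 5 rows, which gave 0.0735 RPKM there. Plin1, Lipe and Pnpla2 encode perilipin 1, which coats the droplet of fat cells, hormone-sensitive lipase and adipose triglyceride lipase, the enzyme of the initial step of lipolysis. At 0 counts, the limit of 3 counts per library corresponds to at most 0.0454 RPKM for Plin1, 0.0269 for Lipe and 0.0385 for Pnpla2, for reads the counting would have kept.

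In order of mean level the genes were Fabp4, Lpl, Cebpa, Adipoq, Pparg, Cidec and Cd36, and then the 3 at 0. Fabp4 was above Lpl in 3 of 3 libraries, with a within-library log2 ratio of 1.29 ± 0.34 on the log2(RPKM + 0.1) scale, which understates differences of low genes. Their ranges did not overlap. Lpl and Cebpa did not differ beyond their spread (log2 ratio 0.30 ± 0.46), nor did Cebpa and Adipoq (0.89 ± 1.48). The ranges of Adipoq and Pparg did not overlap (log2 ratio 2.70 ± 2.02), with the reservation on the rows of Pparg. Pparg and Cidec overlapped (0.10 ± 0.33), as did the genes that follow. A sign-flip test of 3 libraries cannot give an exact p below 0.25, so these ratios are given with no p.

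The regulators set against the effectors gave an answer that depends on the summary. The mean log2(RPKM + 0.1) was -0.14 over the 2 regulators and -1.14 over the 8 effectors, a difference of 1.00 ± 0.83 (SD over 3 libraries). The difference was 1.24, 1.68 and 0.07 in replicates 1, 2 and 3, positive in each, and close to 0 in replicate 3, where Pparg had no counts. Without replicate 2 it was 0.656. The 4 effectors with several rows pull the effectors down in this mean. Over the genes with 1 row alone, Cebpa against 4 effectors, the difference was 0.67 ± 0.67, with 0.24, 1.44 and 0.34 in the libraries. With a pseudocount of 1 it was 0.23 ± 0.35 and negative in replicate 3 (-0.13). With the median of each class it was 2.41. Summed, the levels lay in the other order. The regulators added up to 3.02, 4.60 and 2.48 RPKM, and the effectors to 13.0, 13.4 and 20.4 RPKM, mostly Fabp4 and Lpl. These sums set 8 effectors against 2 regulators, so the class with more genes is favoured. Gene by gene, Fabp4 exceeded Cebpa in 3 of 3 libraries (log2 ratio 1.59 ± 0.70), Lpl in 2 of 3 (0.30 ± 0.46) and Adipoq in 1 of 3 (-0.89 ± 1.48). Cidec, with 1 row, was below Cebpa in every library, at 0.434, 0.173 and 0 against 2.65, 4.32 and 2.48 RPKM. Cd36, Plin1, Lipe and Pnpla2 were also below Cebpa in every library, with the reservation on their rows. No direction between regulators and effectors holds under all of these summaries.

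The spread among libraries differed widely between the genes. The coefficient of variation of RPKM over the 3 libraries was 8.41% for Lpl, 32.3% for Cebpa, 32.8% for Fabp4 and 61.6% for Adipoq, where counting error alone would give 4.03%, 5.85%, 5.33% and 10.1%. For Cidec and Pparg it was 108% and 89.3%, against 28.5% and 26.4% from counting. A chi-square test of each gene's counts against the library totals, adjusted over all symbols with at least 10 counts, called all 6 of these genes uneven (adjusted p = 0.0157 for Lpl, 2.84e-13 for Cebpa, 5.96e-16 for Fabp4, 1.99e-15 for Adipoq, 1.06e-07 for Cidec and 1.86e-06 for Pparg). Cd36 had too few counts for the test. It compares libraries, not conditions, and 82.5% of the 21268 symbols tested were uneven too. Among the 7365 symbols with 100 to 2000 counts in all, a range chosen after the values were seen that holds Cebpa, Fabp4, Lpl and Adipoq, 77.8% were uneven. Being uneven is therefore the rule in these libraries. Without replicates 1, 2 and 3 the number of these genes called was 5, 5 and 4.

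**Figure D3:**
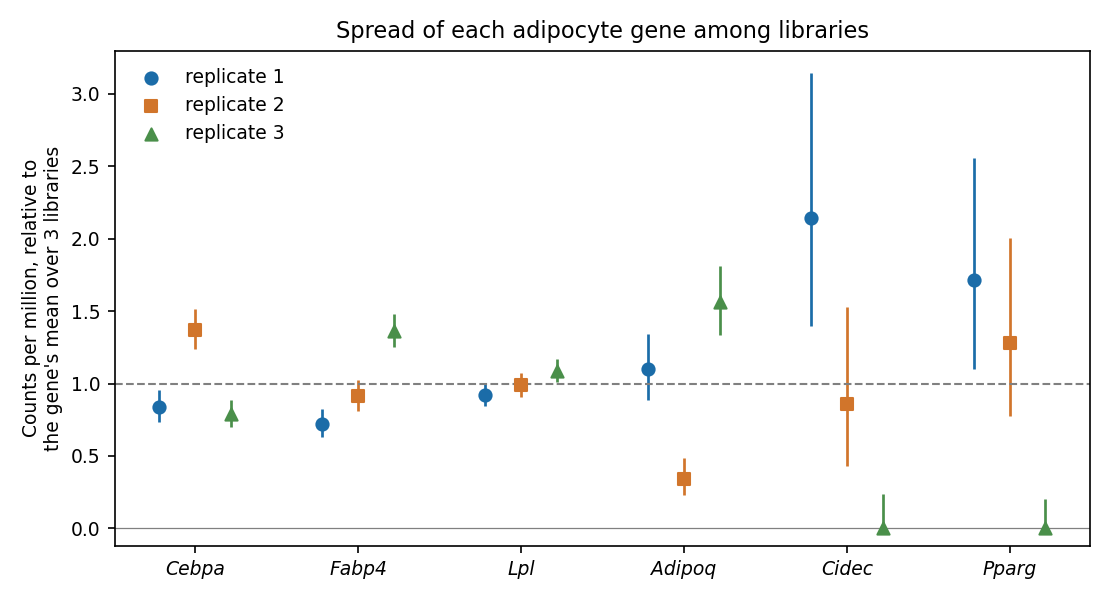
CPM (counts scaled to the library's total) of each gene in replicates 1, 2 and 3, divided by the gene's mean over the 3 libraries (linear axis), with exact 95% Poisson intervals as vertical lines that cover counting error only. Replicate 2 is the highest for Cebpa and the lowest for Adipoq, replicate 3 is the highest for Fabp4, Lpl and Adipoq, and Cidec and Pparg have no counts in replicate 3.

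The libraries did not rank the genes alike. Cebpa was highest in replicate 2, where Adipoq was lowest, and the within-library log2 ratio of Adipoq over Cebpa was -0.34, -2.57 and 0.24 in replicates 1, 2 and 3. Adipoq was below Fabp4 in every library (log2 ratio -2.48 ± 0.99), with -3.60 in replicate 2 and -1.72 and -2.13 in replicates 1 and 3. Highest over lowest library was 4.58-fold for Adipoq, 1.88-fold for Fabp4, 1.74-fold for Cebpa and 1.18-fold for Lpl. Replicate 3 had the most symbols at 0 although it was the deepest: 1086 symbols with 1 row had 0 counts there and at least 20 in the other 2 libraries together, against 611 for replicate 1 and 379 for replicate 2. Cidec is 1 of these 1086, and Pparg shows the same pattern among symbols with several rows. The part of this difference between libraries in the zeros of Cidec and Pparg was not tested.

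Several genes related to the 10 but less tied to fat cells were at higher levels. Apart from Fabp3, Cidea and Cdh13, those named here are among the highest of their lists. Their higher levels therefore follow from how they were chosen and do not describe related genes in general. Fabp5, the fatty acid binding protein of skin and many other cells, stood at 119.7 ± 20.4 RPKM. Fabp4 was below Fabp5 in 3 of 3 libraries, 12.5-fold on the log2(RPKM + 0.1) scale (log2 ratio -3.64 ± 0.53). Fabp4 was above Fabp3, the form of heart and muscle, in 3 of 3 libraries (log2 ratio 3.57 ± 1.17). Cidec was above the related gene Cidea in 1 of 3 libraries (log2 ratio -1.47 ± 1.97). Cebpb and Cebpd, which act before Cebpa in fat cell differentiation and also in inflammation and bone, stood at 76.6 ± 16.0 and 31.0 ± 3.59 RPKM. Cebpa was lower than Cebpb by a log2 ratio of -4.58 ± 0.75 and lower than Cebpd by -3.30 ± 0.59, each in 3 of 3 libraries. Adipor1, a receptor of adiponectin, was at 56.2 ± 4.58 RPKM, and Adipoq was below it in 3 of 3 libraries (log2 ratio -5.05 ± 0.94). Of 5 genes for adiponectin receptors and their signalling, 4 were above 1 RPKM, against 43.0% of all genes tested. The other, Cdh13, which encodes T-cadherin, was below. Angptl4, an inhibitor of lipoprotein lipase, was at 16.1 ± 3.23 RPKM, and Lpl was 4.11-fold lower (log2 ratio -2.04 ± 0.24).

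**Figure D4:**
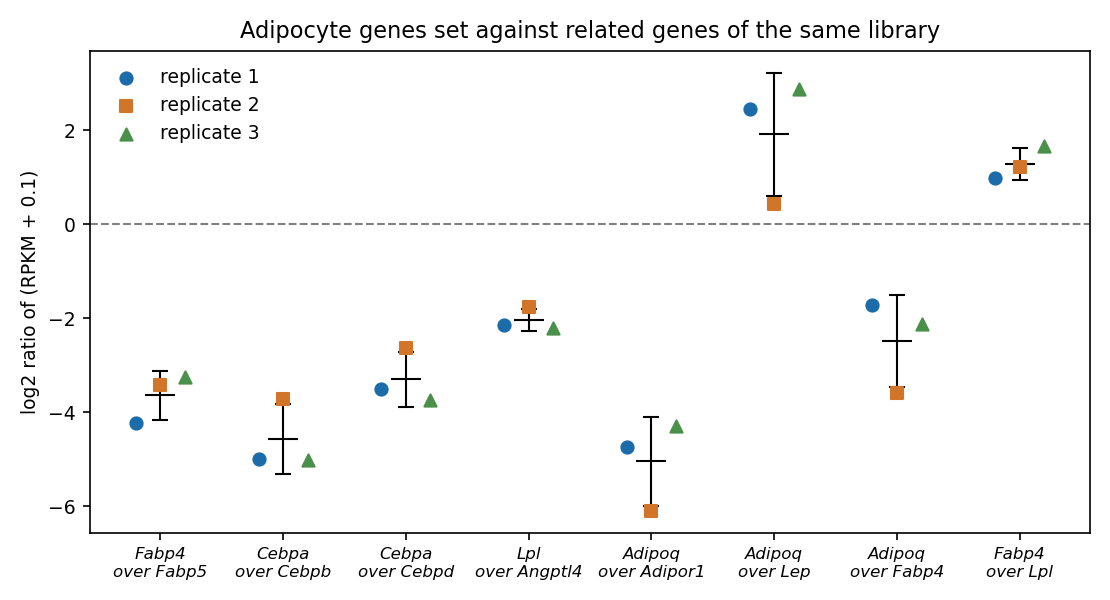
Within-library log2 ratio of (RPKM + 0.1) of an adipocyte gene over a related gene, in replicates 1, 2 and 3, with the mean and SD of the 3 libraries in black and the dashed line at equal levels. Fabp4 lies below Fabp5, Cebpa below Cebpb and Cebpd, Lpl below Angptl4 and Adipoq below Adipor1 and Fabp4 in all 3 libraries, while Adipoq lies above Lep and Fabp4 above Lpl.

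Other regulators of fat cell fate were present on both sides. Of 17 other pro-adipogenic regulators, 7 were above 1 RPKM and 5 below, while 2 were unresolved and 3 at 0. Their median was 0.477 RPKM, or 4.96 RPKM over the 11 with 1 row. Besides Cebpb and Cebpd, the highest were Rxra, the partner of PPARγ, at 24.7 ± 2.22 RPKM and the Krüppel-like factor gene Klf9 at 23.5 ± 1.89 RPKM. The 3 at 0 (Ppargc1a, Zfp467 and Ppara) had several rows each. Of 14 genes known to restrain fat cell formation, 6 were above 1 RPKM, 3 below, 3 unresolved and 2 at 0. The 2 at 0 had several rows each, as did some of those below in either list. Over all genes tested, 43.0% were above 1 RPKM and 12.4% below, and the counts above were near that share. Ddit3, whose product blocks C/EBP factors, was highest at 169 ± 6.11 RPKM, followed by the ligand gene Wnt5a at 79.3 ± 1.55, Twist1 at 38.2 ± 2.54 and the Notch target Hes1 at 13.9 ± 2.11 RPKM. Over all symbols with 1 row the median was 0.694 RPKM.

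Genes of lipid handling were read against the 43.0% of all genes tested that were above 1 RPKM. The counts for droplets, lipolysis and triglyceride synthesis were near that share. These lists mix genes found in many cells with genes tied to fat cells, such as Adrb3 at 0.165 RPKM. The genes named below are mostly the highest of their lists, so they do not stand for the lower members. Of 14 lipid droplet and caveola genes, 6 were above 1 RPKM, 7 unresolved and 1 at 0. The droplet proteins Plin2 and Plin3, found in most cell types, stood at 66.1 ± 5.09 and 36.6 ± 2.90 RPKM, and the caveola genes Cav1 and Cavin1 at 215.8 ± 35.2 and 153 ± 25.7 RPKM. Of 11 genes of lipolysis and its control, 5 were above and 6 unresolved. Abhd5, the activator of the lipase encoded by Pnpla2, stood at 16.9 ± 0.452 RPKM, and Prkaca, a catalytic subunit of the kinase that triggers lipolysis, at 23.3 ± 1.02 RPKM. Of 14 genes of fatty acid uptake and activation, 10 were above, 2 unresolved and 2 at 0. Gpihbp1, which anchors lipoprotein lipase on capillaries, had 1 row and 0 counts. Of 12 triglyceride synthesis genes, 6 were above and 6 unresolved, with Agpat6 at 38.7 ± 0.593 and Gpam at 29.0 ± 2.16 RPKM, both for acyltransferases of glycerol 3-phosphate.

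Markers of mature fat cells spanned a wide range of levels. Of 17 adipokine and mature adipocyte genes, 6 were above 1 RPKM and 1 below, against 43.0% and 12.4% of all genes tested. A further 9 were unresolved and 1 was at 0. The median of the 17 was 0.397 RPKM, against 0.497 RPKM for all symbols. Over symbols with 1 row it was 0.42 RPKM for 15 of these genes, against 0.694 RPKM for all. The list as a whole was thus not higher than all symbols by either median. The 4 highest have roles in many cells: the desaturase gene Scd1 at 95.9 ± 8.52 RPKM, Nampt of NAD synthesis at 49.96 ± 1.74, the fatty acid synthase gene Fasn at 8.25 ± 0.207 and the peptide hormone gene Apln at 5.93 ± 0.226 RPKM. Of the 9 genes taken as defining adipocyte markers, 2 were above 1 RPKM (Fabp4 and Adipoq), 1 was below (Lep), 5 were unresolved and Plin1 was at 0. The shares over all genes tested, 43.0% above and 12.4% below, apply here too. Lep, the leptin gene, stood at 0.354 ± 0.0859 RPKM (edgeR adjusted p = 0.0244) and was below Adipoq in 3 of 3 libraries. Cfd (adipsin) stood at 1.06 ± 0.317, Retn (resistin) at 0.42 ± 0.595 with 39, 6 and 0 counts, Slc2a4 (the insulin-dependent glucose transporter) at 0.397 ± 0.326 and Adrb3 at 0.165 ± 0.0622 RPKM. The levels of the 9 defining markers summed to 12.8, 11.7 and 18.2 RPKM in replicates 1, 2 and 3. For 12 osteoblast lineage genes the sums were 14360, 13360 and 12810 RPKM. The osteoblast sum was mostly the matrix genes Sparc, Col1a2, Ibsp and Postn. The marker sum was mostly Fabp4 and counts Plin1, with 2 rows, as 0. These sums cover unlike kinds and numbers of genes and give no ratio of cell types.

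**Figure D5:**
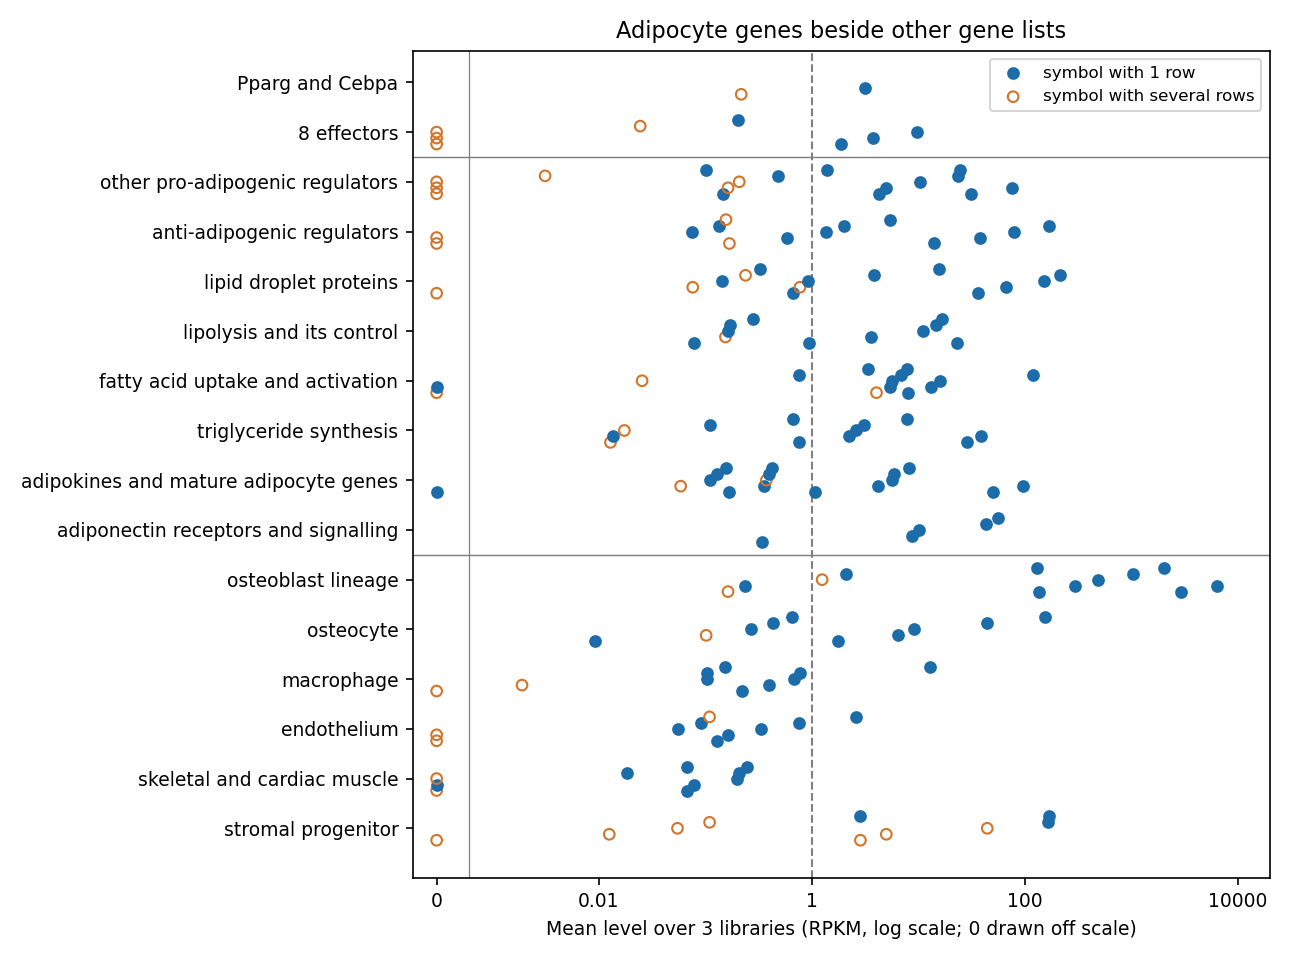
Mean level over the 3 libraries in RPKM (log axis, 0 drawn off scale at the left) of Pparg and Cebpa, the 8 effectors and the genes of 14 other lists, 1 point a gene, filled for symbols with 1 row and open for symbols with several; the dashed line marks 1 RPKM. The regulators and effectors reach at most 9.73 RPKM, osteoblast lineage genes reach 6409 RPKM, and most points at 0 are symbols with several rows.

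Several of the 10 genes are also expressed by macrophages and endothelial cells, so markers of other cells were read beside them. Of 10 macrophage genes, 1 was above 1 RPKM, Lyz2 (lysozyme) at 12.9 ± 1.10 RPKM, 4 were below, 4 unresolved and 1 at 0. Csf1r, the receptor that defines macrophages, stood at 0.152 ± 0.0788 RPKM and Itgam, with 2 rows, was listed at 0. Their summed level was 15.4, 16.2 and 14.3 RPKM in replicates 1, 2 and 3, mostly Lyz2 with 13.8, 13.2 and 11.7 RPKM. The macrophage genes did not share an order of libraries. Csf1r, Fcgr1 and Tyrobp were highest in replicate 3, as Fabp4 was, at 0.242, 0.299 and 0.314 RPKM there. Cd68 and Cd14 were highest in replicate 2, and Lyz2, Adgre1 and Mpeg1 were lowest in replicate 3. Apart from Lyz2 these genes had few counts, with 0, 0 and 8 for Tyrobp and 17, 16 and 47 for Csf1r in replicates 1, 2 and 3. Of 10 endothelial genes, 1 was above 1 RPKM, Kdr at 2.62 ± 0.185 RPKM, 4 were below, 3 unresolved and 2 at 0 (Pecam1 and Emcn, with 2 rows each). Their sum was 4.27, 4.05 and 4.45 RPKM. Of 10 muscle genes none was above 1 RPKM, 2 were below, 5 unresolved and 3 at 0. Those at 0 were Myh6 with 2 rows, Tnnt2 with 10 and Actc1 with 1. Zeros of symbols with several rows are again not read as absence. Over all genes tested, 43.0% were above 1 RPKM and 12.4% below. Of 10 stromal progenitor genes, 6 were above, among them Kitl at 168.7 ± 10.1, Ly6a at 166.8 ± 23.6, Cxcl12 at 44.5 ± 6.24 and the leptin receptor gene Lepr at 5.01 ± 0.718 RPKM. Only 3 of these 10 genes have 1 row, and all 3 were above. Cxcl12 and Lepr have 3 rows each, and the stromal genes not above have several rows, so the limit on rows applies to them. The part of macrophage or endothelial RNA in the levels of Fabp4, Lpl and Cd36 was not tested.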

How the data were processed

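RNA-seq was read in 3 libraries of PTH-treated IDG-SW3 cells. The submitters' processing notes name TopHat and mm9. Tool versions, the counter and the annotation were not given in the sources used here. The deposited values were taken as raw counts per transcript row, although the file names say RPKM. The 30795 rows were summed over 25410 symbols. No row lacked a name. Lengths were medians over basic transcripts of GENCODE M21 (GRCm38) for 23047 symbols, 2207 of them matched through RefSeq synonyms. RPKM used all counts of a library. Levels of genes above 0 were set against 1 RPKM by a two-sided test in edgeR 4.0.16 (quasi-likelihood, trended dispersion, robust, Poisson bound on p, expected count at 1 RPKM as offset, R 4.3.3), with Benjamini-Hochberg adjustment over all genes and a threshold of 0.05. Alternatives were limma 3.58.1 on log2(RPKM + 0.1) and, added after the data were seen, DESeq2 1.42.0. The edgeR test and the chi-square test were also run on simulated counts, while limma and DESeq2 were not. The simulations gave all genes the same dispersion, or counting error alone. They therefore do not cover the spread among libraries seen here.

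The genes and lists were chosen with earlier results of these data known. All 10 adipocyte genes are named, and from each other list up to 4 genes with the highest mean level, plus genes at 0 in lists of other cell types. Outside this rule, Fabp3, Cidea, Cdh13, Lep, Cfd, Retn, Slc2a4, Adrb3, Gpihbp1, Ppargc1a, Zfp467, Ppara, Csf1r, Fcgr1, Tyrobp, Adgre1, Cd68, Cd14, Runx2, Fam20c, Dmp1, Mepe, Fgf23, Cd44 and Sost were named after their values were seen.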

Additional observations from a re-analysis of the deposited data

How the results depend on the processing

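The order of regulators and effectors depended on the summary. It was opposite for summed levels, which favour the class with more genes. With a pseudocount of 1 the difference was -0.13 in replicate 3. DESeq2 called 2 of the 10 genes above 1 RPKM (Fabp4 and Lpl), against 4 with edgeR, and limma called 3 above. Without replicates 1, 2 and 3 the count was 3, 4 and 3, with Adipoq the gene lost. The count below 1 RPKM, 0 with edgeR, was 3 with limma and 1 (Cd36) when rows of a symbol were averaged, which lowers Cd36 by its 5 rows. Over all genes, 2613 were below 1 RPKM, but 9855 with limma, 268 with DESeq2, and between 686 and 2340 with a library left out (992 without replicate 1 and 686 without replicate 2). Symbols uneven among libraries numbered 17536, and between 11089 and 12890 with a library left out (11089 without replicate 3). The regulators minus effectors difference was 2.41 with class medians and lay between 0.656 and 1.46 with a library left out. For limma, DESeq2 and class medians, the cause was not tested. The call of Cebpa was lost with DESeq2. TMM and DESeq2 scaling and transcript length changed no level call of the 10 genes. A minimum of 10 counts removed Cd36 from the level test, and a minimum of 1 count added it to the uneven genes, 7 in place of 6. No paired analysis was possible because the 3 libraries form 1 group. Cidec, Pparg and Cd36 had 37, 43 and 9 counts over all libraries, and the spread of Cidec and Pparg among libraries exceeded counting error.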
